A study of Mus musculus with 6 samples.

Results

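The genes described here make hyaluronan or bind it: the hyaluronan synthases Has1, Has2 and Has3, the matrix proteoglycan versican (Vcan), the cell surface receptor Cd44 and the secreted binding protein Tnfaip6, also called TSG-6. They were chosen by name, and every probe set that the platform annotation gives to 1 of these genes alone was taken. This gave 17 probe sets for 6 of 18193 named genes, with 8 for Vcan, 4 for Cd44, 2 for Has2 and 1 each for Has1, Has3 and Tnfaip6. The study measured mouse RNA on 6 oligonucleotide arrays. One array held RNA of activated FL-Y and 1 that of FL-Y, a line with features of follicular dendritic cells that was transformed with SV40; activation was by an antibody to the lymphotoxin beta receptor, for a time that is not given in the sources used here. A further 2 arrays held follicular dendritic cells (FDC) grown in culture, and 2 held dendritic cells derived from bone marrow (BMDC). The labels give no strain, age, genotype, dose or number of animals for any group. FL-Y stands as a single line, so its values are those of 1 line and 1 array in each state. Whether the 2 FDC arrays, or the 2 BMDC arrays, hold RNA of separate cultures or mice is not stated, so each p-value measures only the spread between these arrays, which may be technical.

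Hyaluronan is a long unsulphated chain of glucuronic acid and N-acetylglucosamine. It is made at the plasma membrane by the Has enzymes, which draw on sugar nucleotides of the cytosol, and it leaves the cell as it grows. In the matrix it is organised by proteins that carry a Link domain, among them versican, which joins hyaluronan to other matrix fibres, and Tnfaip6, which transfers heavy chains of inter-alpha-inhibitor onto hyaluronan during inflammation and ovulation. Cd44 is the main receptor for hyaluronan on leukocytes and stromal cells. In lymphoid tissue, stromal cells are known as makers of matrix, and leukocytes bind hyaluronan through Cd44.

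The sequences just upstream of 4 of the 6 genes were present in a RefSeq table (build GRCm38.p6). Has2, which had 1 called probe set, and Has3 had no entry there. The 4 are shown so that the gene with the most calls between FDC and BMDC (Vcan) can be read beside genes with none. Of these Cd44 is bright, Has1 lower and Tnfaip6 dim throughout. With 1 called gene among the 4, no motif is related to a call. Each sequence is 250 bases long, ends at the base before the start of transcription and runs 5′ to 3′ along the gene. Capitals mark matches to 7 short motifs on either strand.
Has1, chr17:17855189-17855438, minus strand: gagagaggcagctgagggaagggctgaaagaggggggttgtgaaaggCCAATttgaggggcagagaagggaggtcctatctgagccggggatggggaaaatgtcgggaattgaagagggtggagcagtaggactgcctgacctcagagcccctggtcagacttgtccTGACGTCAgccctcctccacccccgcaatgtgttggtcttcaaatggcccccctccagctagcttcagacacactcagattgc
Vcan, chr13:89742513-89742762, minus strand: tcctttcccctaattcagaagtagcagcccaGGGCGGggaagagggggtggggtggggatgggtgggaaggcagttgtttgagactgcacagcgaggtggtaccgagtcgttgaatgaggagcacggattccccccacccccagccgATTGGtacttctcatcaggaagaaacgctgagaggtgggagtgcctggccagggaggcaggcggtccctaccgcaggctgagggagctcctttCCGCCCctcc
Cd44, chr2:102901666-102901915, minus strand: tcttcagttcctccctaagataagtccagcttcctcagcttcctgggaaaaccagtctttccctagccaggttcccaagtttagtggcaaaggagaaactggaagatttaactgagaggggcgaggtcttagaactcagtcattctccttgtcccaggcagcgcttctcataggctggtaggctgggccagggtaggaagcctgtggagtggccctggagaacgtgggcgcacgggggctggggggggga
Tnfaip6, chr2:52037863-52038112, plus strand: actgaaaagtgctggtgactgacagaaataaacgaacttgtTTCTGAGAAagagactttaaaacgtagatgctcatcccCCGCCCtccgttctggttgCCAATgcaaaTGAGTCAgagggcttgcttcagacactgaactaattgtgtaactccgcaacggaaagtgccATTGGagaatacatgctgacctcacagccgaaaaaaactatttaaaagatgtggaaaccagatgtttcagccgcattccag
The motifs searched were the TATA box TATAAA, the CCAAT box, the GC box GGGCGG, the cAMP response element TGACGTCA, the AP-1 site TGAGTCA, an NF-kB site and the STAT site TTCNNNGAA. Has1 held a cAMP response element that begins at base -83 from the start, and 1.55% of 32851 promoters of this length hold one. Has1 also held a CCAAT box, present in 33.8% of promoters, as did Vcan with 1 and Tnfaip6 with 2. Vcan held 2 GC boxes and Tnfaip6 held 1 (32.7% of promoters). Tnfaip6 held an AP-1 site (4.46% of promoters) that begins at base -142, and a STAT site (7.02% of promoters). Cd44 held none of the 7 in this window. No matches of different motifs overlapped, and no NF-kB or TATA box match was found in these 4 windows (0.356% and 12.4% of promoters). A match is a string of letters and was not tested as a binding site.

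Values are array signals on a linear scale as deposited, and differences are of log2(signal + 14.2). The offset keeps dim probe sets from dominating, and it makes their differences smaller. The 20th percentile of the arrays, 8.7 to 15.4 signal units, was used to mark very dim signals and is not a detection limit. The median signal was 47.9 on the activated FL-Y array, 61.1 on the FL-Y array, 79.6 to 82.5 on the FDC arrays and 76.4 to 84.4 on the BMDC arrays. Ratios of 3′ to 5′ signal for the Gapdh control lay between 0.808 and 0.904 on the 6 arrays. The arrays differed in the ratio of labelling to hybridisation controls, which was 0.0570 for activated FL-Y, 0.0497 for FL-Y, 0.104 and 0.238 for FDC 1 and FDC 2, and 0.0904 and 0.373 for BMDC 1 and BMDC 2. Values are therefore also given within the pairs of equal array number. The labels give no shared origin for such a pair, and 1 BMDC array has no number in them and was taken as array 1. These pairs are thus not matched replicates. The cell type labels were set against markers. Of 12 fibroblast and mural cell markers tested, 9 were higher in FDC, and of 13 FDC markers tested 0 were higher and 3 lower. The complement receptor Cr2, which defines FDC in tissue, had signals of 119.5 and 4.1 in FDC, against 59.1 and 71.1 in BMDC. Other FDC markers went both ways. Vcam1 had 6959.3 and 5764.4 in FDC, against 108.4 and 874.7 in BMDC, and Prnp 12398.5 and 8305.1, against 2841.7 and 1117.2. Neither was called. Mfge8 had 5146.4 and 6483.8 in FDC, against 27357.5 and 25081.7 in BMDC, and Fcgr2b 199.4 and 198.0, against 32488.0 and 23876.6. The FDC arrays also carried signal for other cells. On each FDC array 7 of 8 mast cell markers lay above the array median. On BMDC 1 and BMDC 2 there were 5 and 4, and on FL-Y and activated FL-Y 0 and 1. Of 7 T cell markers 6 lay above the median on each FDC array, against 0 on each FL-Y and BMDC array. Of 10 macrophage or monocyte markers 6 did so on each FDC array and 9 on each BMDC array. These are counts for each array, and the markers above the median were not all the same on both FDC arrays. Of the tested markers, 4 of 8 for mast cells and 3 of 6 for T cells were higher in FDC, and 8 of 9 for macrophages or monocytes were lower. Of 4 pan-leukocyte markers 3 lay above the median on FDC 1 and 4 on FDC 2. The BMDC arrays carried signal for other cells too. All 7 neutrophil markers lay above the median on each BMDC array, against 3 on FDC 1 and 4 on FDC 2. Their summed signal was 81148.5 on BMDC 1 and 147532 on BMDC 2. Mpo was lower on BMDC 2, with 21763.8 and 5730.7, and the other neutrophil markers were higher, Ngp with 3215.1 and 20659.6. Of 10 tested dendritic cell markers 9 were lower in FDC. The part of all these cells in the results was not tested.

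The main comparison set FDC against BMDC. Cultured FDC carried far more message for versican than BMDC, and 1 of the 2 Has2 probe sets was called higher as well. Has1 had higher signals on both FDC arrays than on either BMDC array without passing the test, Cd44 was bright in both cell types, and Has3 and Tnfaip6 were dim in both. Of the 17 probe sets, 10 were bright enough to be tested, and 4 of them passed an adjusted p of 0.05 with limma, all higher in FDC: 3 of Vcan and 1 of Has2. The background is 8.93% of all 27022 probe sets tested, and 4.84% for calls higher in FDC. At an unadjusted p under 0.05 there were 7. On 7 of the 10 tested probe sets both FDC arrays lay above both BMDC arrays, against 25.8% of all tested, and on 0 of them below both, against 28.9% of all tested. On 4 of these 7, Has1, 1 of Has2 and 2 of Vcan, the BMDC mean alone was below the filter, so they were tested only through their FDC signal; this holds for 2 of the 4 called, and nothing is read from these counts about the genes as a group. In these mixed RNA samples fewer expressing cells and less RNA per cell cannot be told apart.

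**Figure D1:**
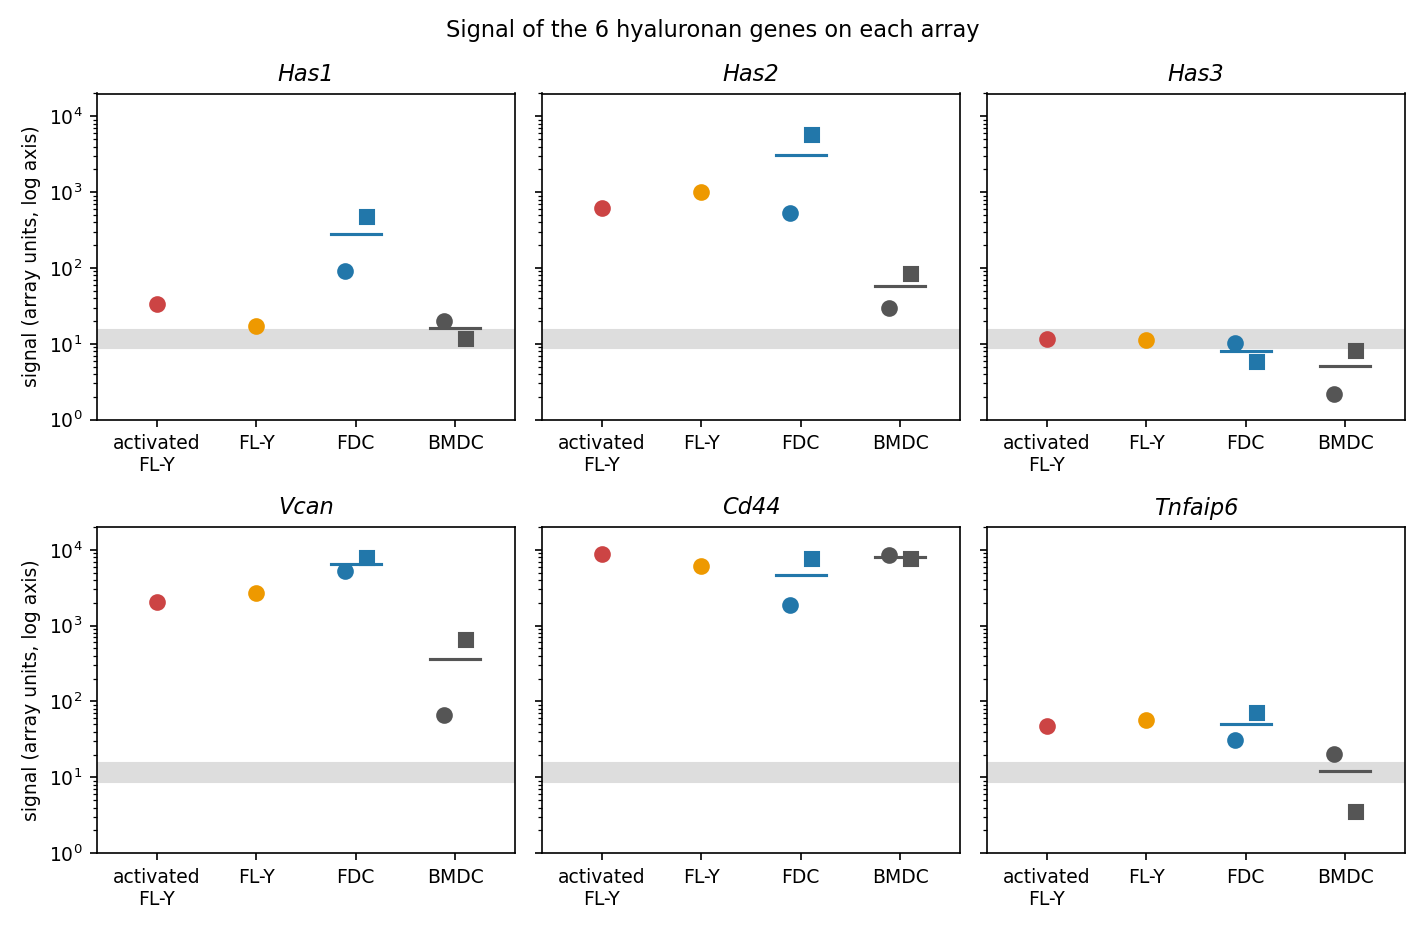
Signal of the 6 genes on each array, on a log axis, for the probe set of each gene with the highest mean; circles are array 1, squares array 2, bars the mean of 2 arrays, and the grey band spans the 20th percentiles of the arrays (8.7 to 15.4). Has2 and Vcan sit lowest in BMDC, Cd44 is bright in all groups, and Has3 stays at or below the band.

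Has2 is the synthase that most stromal cells use and that embryonic development needs. Its brighter probe set had signals of 527.1 and 5728.9 on FDC arrays 1 and 2, against 29.9 and 84.5 on the BMDC arrays. The groups did not overlap, and FDC 2 stood 10.9 times above FDC 1. The log2 difference was 4.74 ± 1.16 (SE, n = 2 each), with a 95% interval from 1.82 to 7.66 and an adjusted p of 0.0715 in limma, so this probe set did not pass. The other probe set of Has2 had 650.0 and 4850.6 in FDC, against 20.9 and 40.2 in BMDC, and rose by 5.36 ± 0.97 (adjusted p = 0.0320 in limma). Within the array pairs the brighter probe set differed by 3.62 and 5.86 and the other by 4.24 and 6.48. Both probe sets thus ordered the 4 arrays alike, and the call of the gene depended on which was read. Without FDC 1 the brighter one passed with a difference of 6.44 (adjusted p = 0.0129 in limma). The second probe set did not pass once BMDC 1 or BMDC 2 was left out (adjusted p = 0.0932 and 0.0735 in limma).

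Has1, a synthase known to be induced by inflammatory signals in fibroblasts, had signals of 91.3 and 469.4 in FDC, against 20.3 and 11.6 in BMDC. Both FDC signals lay above both BMDC signals, and BMDC 2 was under its 20th percentile. Its difference of 2.92 ± 0.77 (SE, 95% interval 0.97 to 4.87) had an adjusted p of 0.0890 in limma and did not pass. Within the array pairs it was 1.61 and 4.23. Without FDC 1 it passed at 4.02 (adjusted p = 0.0201), and without FDC 2 it was at 1.82 and below the filter, so it was not tested there. Has3, which makes shorter hyaluronan chains, had signals of 10.2 and 5.7 in FDC, against 2.2 and 8.0 in BMDC, and 11.7 and 11.1 in activated and resting FL-Y. It was under the array median on all 6 arrays and under the 20th percentile on 5, so it was not tested.

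Versican held the lowest adjusted p-values of the 6 genes. Its probe set with the highest mean (1421694_a_at) had signals of 5214.8 and 7874.1 in FDC, against 66.7 and 653.9 in BMDC, a log2 difference of 4.79 ± 1.02 (SE) with an adjusted p of 0.0497 in limma. Probe set 1427256_at had 5500.6 and 4769.9 in FDC, against 94.6 and 237.9 in BMDC, and rose by 4.95 ± 0.52 (adjusted p = 0.00713 in limma). Probe set 1427257_at had 1669.9 and 1947.8 in FDC, against 9.8 and 89.4 in BMDC, and rose by 5.19 ± 0.74 (adjusted p = 0.0166 in limma). The 2 FDC arrays lay within a factor of 1.51 of each other on all 3, while BMDC 2 stood above BMDC 1 by 9.80, 2.51 and 9.12 times. Most of the spread of these probe sets was between the BMDC arrays. Within the array pairs the 3 differed by 6.01 and 3.56, by 5.66 and 4.25, and by 6.13 and 4.24. The first lost its call without FDC 1 or FDC 2 (adjusted p = 0.102 and 0.128), and its difference was 3.26 without BMDC 1 and 6.31 without BMDC 2. Both others passed whichever array was left out, at an adjusted p from 0.0120 to 0.0476 in limma.

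The other 5 probe sets of Vcan were dim. One was tested and did not pass, with 184.7 and 72.0 in FDC, against 31.0 and 39.8 in BMDC, and a difference of 1.41 ± 0.52 (adjusted p = 0.189 in limma). Of the 4 that were not tested, 1 had 59.1 and 230.8 in FDC, against 3.1 and 4.0 in BMDC. The remaining 3 stayed between 1.4 and 50.8 on all 6 arrays. Which part of the Vcan message each probe set reads is not given in the sources used here, so no splice form is named from them.

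**Figure D2:**
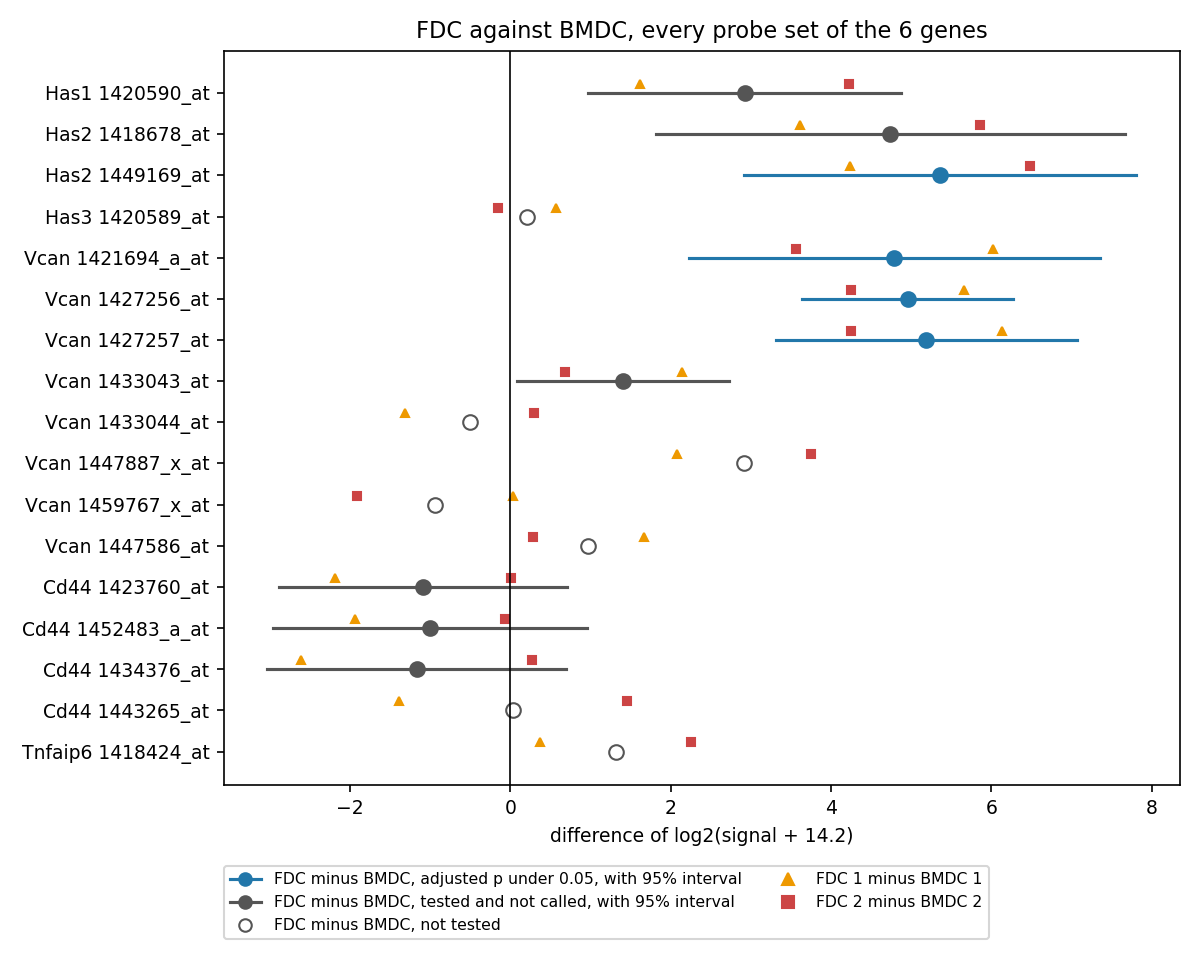
Difference of log2(signal + 14.2), FDC minus BMDC, for all 17 probe sets; lines are 95% intervals of the limma fit, open circles were not tested, and small symbols are the differences within array pairs 1 and 2. The 3 called Vcan probe sets lie between 4.79 and 5.19, and the 3 bright Cd44 probe sets between -1.17 and -1.004, with intervals that include 0.

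Cd44 was bright on every array, and the groups overlapped. Its brightest probe set had signals of 1889.7 and 7557.4 in FDC, against 8635.4 and 7528.8 in BMDC. FDC 2 lay beside the BMDC arrays and FDC 1 stood lower. The log2 difference was -1.09 ± 0.71 (SE, 95% interval -2.88 to 0.71), with an adjusted p of 0.436 in limma. Probe set 1452483_a_at had 1871.1 and 8785.9 in FDC, against 7241.6 and 9178.7 in BMDC, and 1434376_at had 798.0 and 2835.3 in FDC, against 4937.7 and 2346.8 in BMDC. Their differences were -1.004 ± 0.78 and -1.17 ± 0.74 (adjusted p = 0.513 and 0.420 in limma). On all 3 the first array pair differed more than the second: within the first array pair they differed by -2.18, -1.94 and -2.61, and within the second pair by 0.01, -0.06 and 0.27. Without FDC 1 the differences were -0.09, 0.11 and -0.26, so 1452483_a_at turned its sign. Without FDC 2 they were -2.08, -2.12 and -2.07 (adjusted p = 0.0783, 0.0803 and 0.146 in limma). The other probe set of Cd44 lay between 1.3 and 44.1 on all arrays and was not tested.

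Tnfaip6 was dim in every group. Its only probe set had signals of 30.9 and 70.3 in FDC, against 20.6 and 3.5 in BMDC, and it was under the array median on all 6 arrays. Its difference of 1.31 on the log2 scale was not tested, because its mean lay below the filter.

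Has1, Has2 and Cd44 had higher signals on FDC 2 than on FDC 1, and the called Vcan probe sets had higher signals on BMDC 2 than on BMDC 1. Of 12 probe sets of these genes that were bright enough on FDC, 7 were at least 1 higher on the log2 scale on FDC 2 than on FDC 1, against 10% of all probe sets, and 1 was at least 1 lower, against 11.2%. The FDC 2 minus FDC 1 difference was 3.41 and 2.87 for the Has2 probe sets, 2.20 for Has1, and 1.99, 2.22 and 1.81 for the bright Cd44 probe sets. Absolute differences of at least 3.41 were seen in 0.714% of the tested probe sets, and of at least 2.20 in 3.99%. The 3 called Vcan probe sets differed between the FDC arrays by 0.59, -0.21 and 0.22. Of 6 probe sets that were bright enough on BMDC, 3 were at least 1 higher on BMDC 2 and 1 at least 1 lower, against 9.63% and 7.71% of all probe sets. BMDC 2 minus BMDC 1 was 3.05, 1.21 and 2.11 for Vcan, and an absolute difference of at least 3.05 was seen in 0.496% of the tested probe sets. The summed signal of 8 mast cell markers was 13611 on FDC 2 and 7741 on FDC 1. Cma1, Cpa3, Fcer1a and Kit were higher on FDC 2, and Tpsab1, Tpsb2, Mcpt4 and Hdc were lower. The sum of 4 pan-leukocyte markers was 1989 on FDC 2 and 2269 on FDC 1. That of 12 fibroblast and mural cell markers was 217669 and 259220, with Pdpn, Acta2, Tagln and Prrx1 higher on FDC 2 and the others lower. The part of all these cells in the difference between the FDC arrays was not tested. The FL-Y array had 0 of the 8 mast cell markers and 0 of the 4 pan-leukocyte markers above its median. Its Has2 and Cd44 signals were 998.3 and 6058.6. These are values of 1 array of a transformed line, and nothing is read from them about the difference between the FDC arrays.

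**Figure D3:**
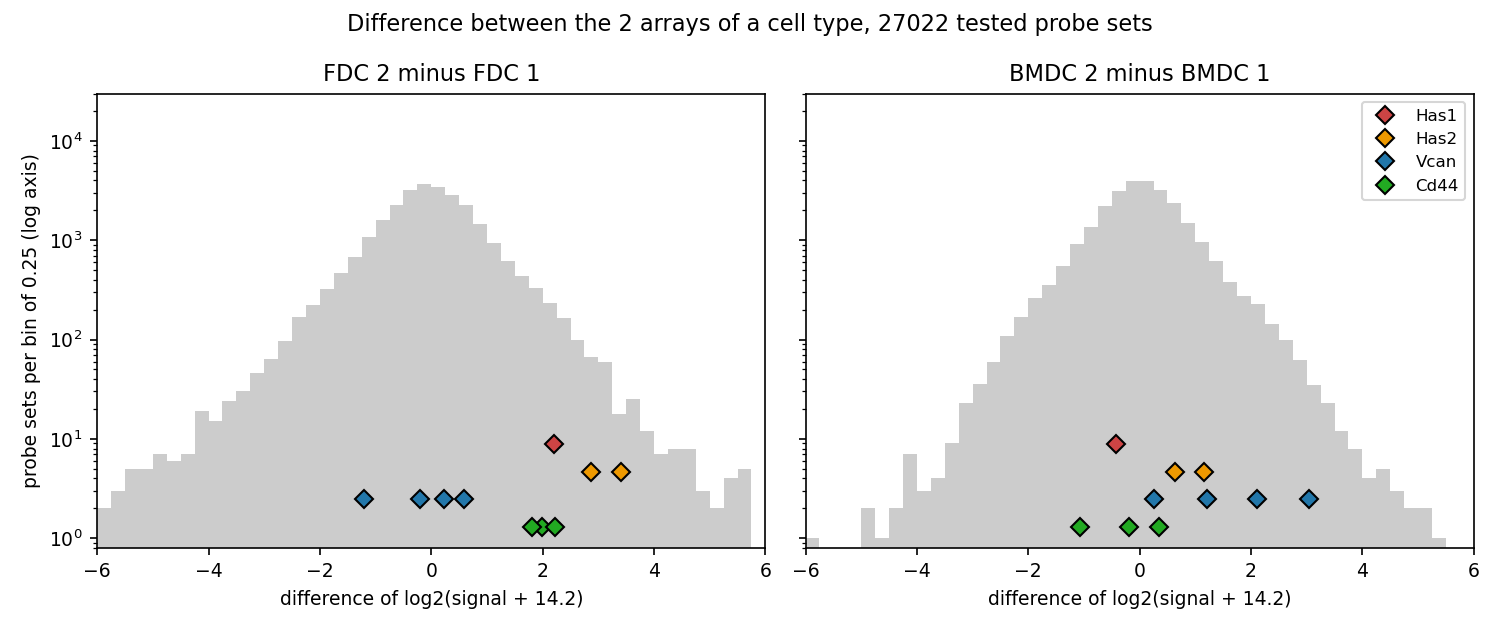
Difference between the 2 arrays of each cell type in log2(signal + 14.2): grey bars count the 27022 tested probe sets on a log axis, and diamonds mark the 10 tested probe sets of Has1, Has2, Vcan and Cd44, with 1 row a gene and no value on the count axis. Has1, Has2 and Cd44 lie to the right in FDC, from 1.81 to 3.41, and the called Vcan probe sets do so in BMDC, from 1.21 to 3.05.

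FL-Y carried clear signal for Has2 and Vcan, while its Has1 signal of 17.2 lay below the array median of 61.1. There is 1 FL-Y array, so no test was made, and a difference was marked where FL-Y lay at least 1 on the log2 scale outside both FDC arrays. Of 12 probe sets that were bright enough, 0 were marked higher and 2 lower, against 7.3% and 13% of all probe sets. One was Has1, with 17.2 in FL-Y, against 91.3 and 469.4 in FDC, a difference of -2.85 from the FDC mean. Its FL-Y signal was below the filter signal of FDC against BMDC (46.4). Has1 may thus have passed the filter of this comparison only through FDC, open to marking only as lower. The other was the Vcan probe set 1427257_at, with 624.4 in FL-Y, against 1669.9 and 1947.8 in FDC. The other called Vcan probe sets had 2694.8 and 3070.5 in FL-Y, below both FDC arrays, at differences of -1.25 and -0.74. Has2 at 998.3 and 1346.8 lay between the FDC arrays on both probe sets. Cd44 at 6058.6, 3704.4 and 2833.3 also lay between the FDC arrays on all 3 bright probe sets. Tnfaip6 at 56.4 lay between them as well.

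Set against BMDC, which was compared with the same FL-Y array, FL-Y stood at least 1 above both BMDC arrays on 6 of 9 probe sets, and below on 0 (11.7% and 17.4% of all probe sets). These were both probe sets of Has2, at 3.94 and 4.96 above the BMDC mean, and 4 of Vcan, from 1.41 to 4.22. On 3 of the 6, 1 of Has2 and 2 of Vcan, the BMDC mean was below the filter signal of FDC against BMDC (46.4). They also did not pass the filter set on the BMDC arrays alone. The filter of this comparison was set on its own arrays, so these 3 may have entered only as higher, and the count is given as a description. Cd44 was at -0.41, -1.14 and -0.26 from the BMDC mean, and 0 of its probe sets were marked.

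Activation of FL-Y through the lymphotoxin beta receptor, a receptor that FDC need in tissue, was set against the resting line, and 0 of 11 probe sets differed by 1 or more on the log2 scale, against 2.31% of all probe sets higher and 5.11% lower. There was 1 array in each state, so no test was made. Has2 had 612.4 and 869.7 in activated FL-Y, against 998.3 and 1346.8 in FL-Y, at differences of -0.69 and -0.62. The bright Cd44 probe sets had 8930.2, 6064.4 and 4964.2 in activated FL-Y, against 6058.6, 3704.4 and 2833.3 in FL-Y, at differences of 0.56, 0.71 and 0.81. The called Vcan probe sets had 2057.5, 2535.0 and 459.4 in activated FL-Y, against 2694.8, 3070.5 and 624.4 in FL-Y, at -0.39, -0.28 and -0.43. Has1 had 33.2 in activated FL-Y and 17.2 in FL-Y, and Tnfaip6 47.7 and 56.4. Scaling the arrays to one median moved the median difference of all probe sets from -0.05 to 0.29. Has2 was then at -0.35, Vcan at -0.04 and Cd44 at 0.91, while Tnfaip6 turned from -0.19 to 0.09. Quantile normalization turned Tnfaip6 to 0.09 as well and brought Has1 to 1.01.

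**Figure D4:**
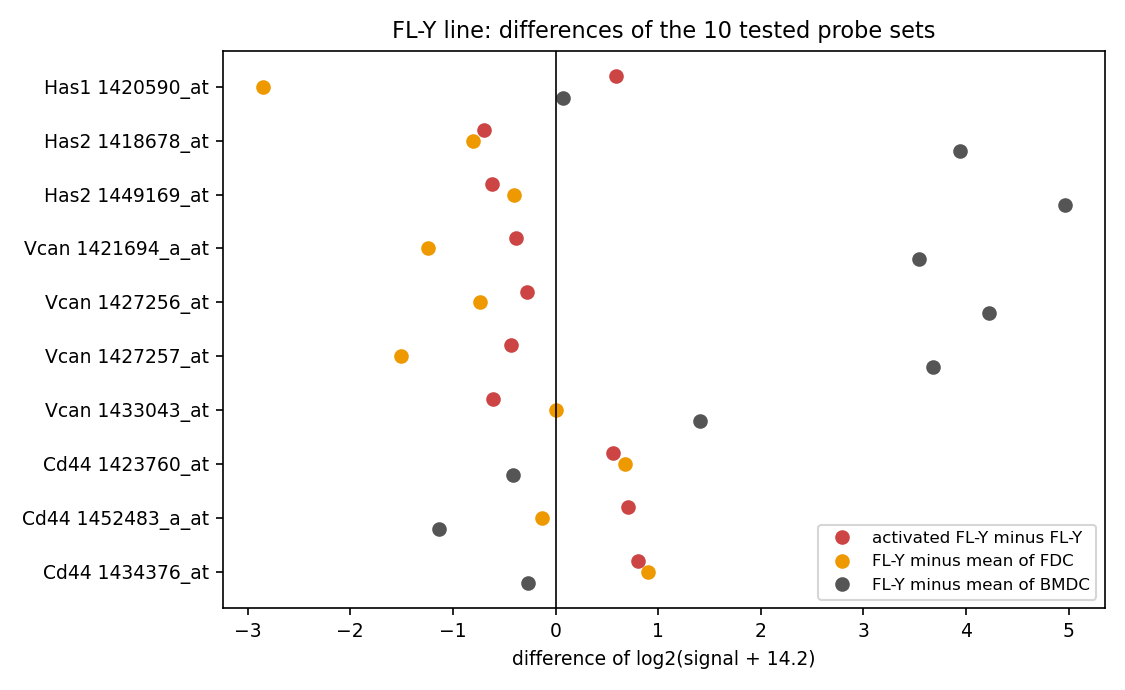
Differences of log2(signal + 14.2) for the 10 tested probe sets: activated FL-Y minus FL-Y, FL-Y minus the FDC mean and FL-Y minus the BMDC mean. Has2 and the 3 called Vcan probe sets lie from 3.54 to 4.96 in FL-Y minus BMDC, and all points of activation lie between -0.69 and 0.81.

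Ordered by signal, Has2 was highest in FDC (3128 ± 3678, SD, n = 2), then in FL-Y (998.3), activated FL-Y (612.4) and BMDC (57.2 ± 38.6, SD, n = 2). Both FL-Y values lay within the range of the 2 FDC arrays, so these neighbours do not differ beyond their spread. Vcan ran in the same order, with 6544 ± 1880 (SD, n = 2) in FDC, 2695 in FL-Y, 2058 in activated FL-Y and 360.3 ± 415.2 (SD, n = 2) in BMDC. For Cd44 the order was activated FL-Y (8930), BMDC (8082 ± 782, SD, n = 2), FL-Y (6059) and FDC (4724 ± 4008, SD, n = 2), and the range of the FDC arrays held the values of FL-Y and BMDC 2. This order holds for the brightest probe set and for 1434376_at; on 1452483_a_at it was BMDC (8210), activated FL-Y (6064), FDC (5328.5) and FL-Y (3704), so no order is given for the gene. Has1 was highest in FDC (280.4 ± 267.4, SD, n = 2) and was 33.2 in activated FL-Y, 17.2 in FL-Y and 15.95 ± 6.15 (SD, n = 2) in BMDC.

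The enzymes that supply and degrade hyaluronan and the partners of versican and Cd44 were read from lists chosen by function. The choice was made with earlier results of these data known. Of 59 genes other than the 6, 56 were on the arrays with a probe set of their own and 38 were tested. In FDC 10 rose and 3 fell, and the median difference was 1.10. Among all 12750 genes tested there were 748 rises and 688 falls (5.87% and 5.40%), with a median of -0.03. For Gfpt2, Cemip, Ptx3, Adamts4, Tnc and Ank3, all among the 10, the BMDC mean on the log2 scale was below the filter. They were tested only through their FDC signal and could be called only as higher. Nothing is read from these counts and medians about the lists. With the 6 genes counted 11 rose and 3 fell. Without BMDC 1 or without BMDC 2 there were 7 rises, falls numbered 1 without BMDC 2 or FDC 1, and falls numbered 5 without FDC 2.

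Among 9 enzymes and transporters of the precursor sugars, 2 rose and 0 fell, with a median of 1.32. Gfpt2, an enzyme at the entry of the hexosamine pathway, had 4244.0 and 1892.3 in FDC, against 19.1 and 47.3 in BMDC, and rose by 5.98 ± 0.58 (adjusted p = 0.00558 in limma). Gfpt2 had 306.4 in activated FL-Y and 125.4 in FL-Y, below both FDC arrays. Its relative Gfpt1 rose by 1.85 ± 0.38 (adjusted p = 0.0458), on 1 of 2 tested probe sets, and lost its call whichever array was left out. Ugdh, which makes the UDP-glucuronic acid that hyaluronan is built from, had 4957.9 and 7282.8 in FDC, against 2648.3 and 1302.2 in BMDC, at 1.69 ± 0.51 (adjusted p = 0.119). Of 3 tested hyaluronan-degrading genes 1 rose. This was Cemip, a protein that hyaluronan breakdown by fibroblasts depends on, with 1753.4 and 2944.3 in FDC, against 8.2 and 4.4 in BMDC, and 1013.5 in activated FL-Y, against 1945.5 in FL-Y. Cemip rose by 6.81 ± 0.44 (adjusted p = 0.00303 in limma), on 1 of 2 tested probe sets, and both BMDC values were under the 20th percentile.

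Of 4 tested genes on the list of proteins that bind hyaluronan or its complexes, 2 rose, Vcan and Ptx3. The pentraxin Ptx3, which joins Tnfaip6 and inter-alpha-inhibitor in hyaluronan matrices, had 11985.9 and 2702.7 in FDC, against 28.4 and 5.2 in BMDC, and rose by 7.63 ± 0.83 (adjusted p = 0.00756 in limma). Ptx3 had 2178.2 in activated FL-Y and 5143.2 in FL-Y. The other lecticans Acan, Bcan and Ncan and the link proteins Hapln1, Hapln2 and Hapln4 were below the filter. Of 6 inter-alpha-inhibitor genes 1, Itih5, was tested, at 0.16 ± 0.43 (adjusted p = 0.868). Ambp and Itih1 to Itih4 were below the filter. Of 5 tested hyaluronan receptors 0 rose and 1 fell, the scavenger receptor Stab1, with 66.1 and 132.6 in FDC, against 824.1 and 622.5 in BMDC, a difference of -2.75 ± 0.47 (adjusted p = 0.0267). With BMDC 1, BMDC 2 or FDC 1 left out Stab1 did not pass (adjusted p = 0.105, 0.0755 and 0.0736). The C-type lectin Layn was at 1.80 ± 0.47 (adjusted p = 0.0849), with the other of its 2 probe sets called at 2.05. Hmmr, a hyaluronan-binding protein of dividing cells, was at -2.05 ± 0.49 (adjusted p = 0.0674) and had 3030.4 in activated FL-Y and 2930.9 in FL-Y, above all 4 other arrays.

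Of 5 tested proteases that cleave versican 3 rose and 0 fell, with a median of 4.58. Adamts5 had 13052.4 and 2357.7 in FDC, against 43.3 and 77.4 in BMDC, and rose by 6.26 ± 0.86 (adjusted p = 0.0150 in limma). Adamts1 rose by 4.86 ± 0.74 (adjusted p = 0.0195) and Adamts4 by 4.58 ± 0.72 (adjusted p = 0.0215), and with BMDC 1 or BMDC 2 left out neither passed (adjusted p from 0.0503 to 0.0679). Of 4 tested versican partners in the fibrillar matrix 2 rose, with a median of 6.64. Fbln2, which binds the carboxy end of versican, rose by 8.61 on 1 of 2 tested probe sets, and the matrix glycoprotein Tnc had 13199.2 and 24541.2 in FDC, against 3.1 and 158.2 in BMDC, and rose by 8.37 ± 1.11 (adjusted p = 0.0136 in limma). Tnc was at 6.71 without BMDC 1 and 10.02 without BMDC 2, passing in both, and did not pass with a floor in place of the offset (9.67, adjusted p = 0.0687). Of 9 tested linkers, sheddases and partners of Cd44 1 rose and 2 fell. Cd74, which pairs with Cd44 at the surface of antigen-presenting cells, fell by 6.58. The membrane linker Ezr was at -3.02 ± 0.44 (adjusted p = 0.0169 in limma) on 1 probe set and at 1.07 on the other, so its probe sets disagree, and it lost its call without BMDC 2 or FDC 1 (adjusted p = 0.0712 and 0.0563). Ank3, a membrane linker that can bind Cd44, rose by 3.25 ± 0.53 (adjusted p = 0.0237) on 1 of 2 tested probe sets, and did not pass once BMDC 1 or BMDC 2 was left out (adjusted p = 0.0763 and 0.0820). The protease Mmp9, which can dock on Cd44, had 372.7 and 1955.5 in FDC, against 6559.4 and 2967.3 in BMDC (adjusted p = 0.190), and 541.3 in activated FL-Y, against 15.4 in FL-Y. The relatives of Ezr, Rdx and Msn, were at -0.01 ± 0.37 and -0.42 ± 0.53 (adjusted p = 0.994 and 0.698).

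**Figure D5:**
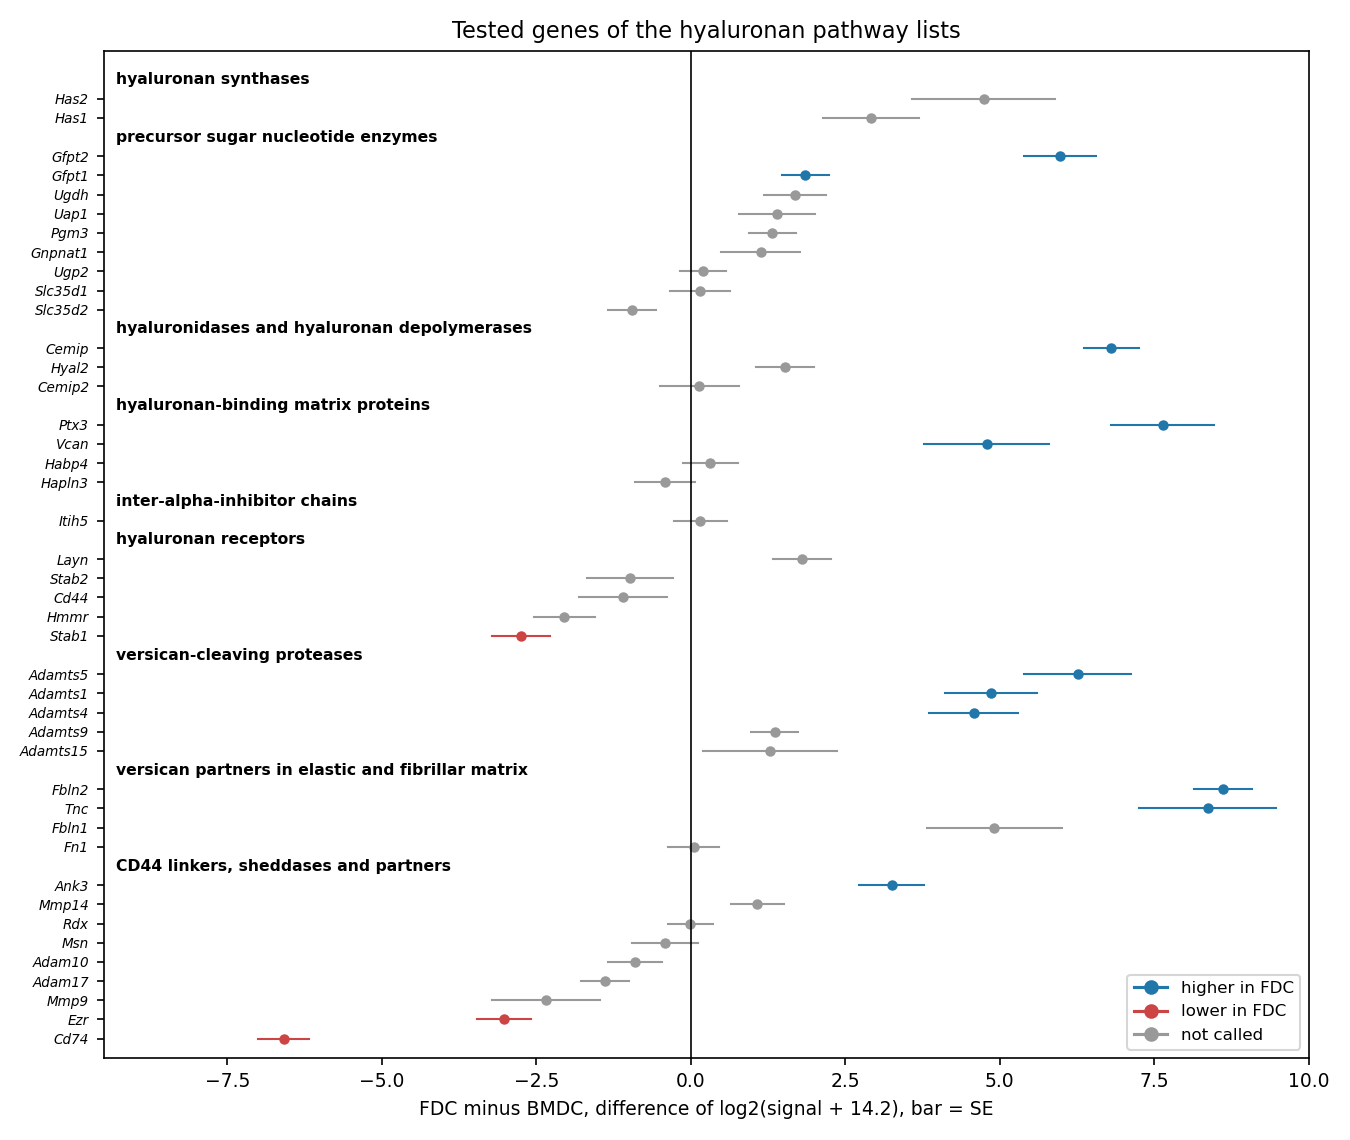
Difference of log2(signal + 14.2), FDC minus BMDC, with its SE for the tested genes of the 9 lists; blue genes passed as higher in FDC, red genes as lower and grey genes did not pass. Fbln2 lies at 8.61, Tnc at 8.37 and Ptx3 at 7.63, and Cd74 at -6.58; Tnc and Ptx3 each had 1 BMDC array under the 20th percentile, so their place depends on the offset (9.67 for Tnc, 8.87 for Ptx3 and 8.91 for Fbln2 with a floor in its stead).

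The genes whose profile over the 6 arrays was closest to a member were found by the root mean square difference of log2 values after each profile was centred on its mean. For Has2 these were Crabp1 (0.43), Col5a3 (0.47) and Gm41724 (0.53). Crabp1, which binds retinoic acid in the cytosol, had 140.8 and 1479.4 in FDC, against 6.3 and 4.0 in BMDC, and Col5a3, a chain of type V collagen, had 307.7 and 1941.2 in FDC, against 8.4 and 60.8 in BMDC. For Vcan they were the metalloproteinase inhibitor Timp1 (0.52), Cpt1c (0.54) and the stress-induced Nupr1 (0.55). Timp1 had 67737 and 59865 in FDC, against 1796 and 5226 in BMDC, and so shared with Vcan the near-equal FDC arrays and the higher BMDC 2. For Has1 they were the signalling adaptor Shc4 (0.30), the interferon-inducible GTPase Ifi47 (0.34) and Cfap69 (0.37), and Ifi47 had 6305.8 and 15563 in FDC, against 2159.5 and 1245.9 in BMDC. For Cd44 they were Hivep1 (0.22), Zfp850 (0.22) and the DNA repair gene Nhej1 (0.24), which had signals of 80.6, 15.6 and 40.4 on FDC 1 and 332.4, 85.1 and 141.3 on FDC 2. For Tnfaip6 they were Ptar1 (0.14), Pgrmc1 (0.18) and Ugdh (0.19), the enzyme of the precursor list. Tnfaip6 was under the array median on all 6 arrays, where the offset makes differences smaller. Nothing is read from its likeness to these genes. The points are 6 arrays of 4 groups, so each likeness describes these arrays only.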

How the data were processed

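RNA of 6 mouse samples was labelled with biotin in a one-cycle protocol, per the labels, and measured on 1 array each. The deposited table holds linear intensity values for 45101 probe sets, 1 for each array. The trimmed mean (2% at each end) was 500 on every array, so the deposited values had been scaled; no program or setting behind them is given in the sources used here. Depth has no meaning for arrays, and their number limits the precision. Gene names came from the platform annotation, checked by gene identifier against RefSeq; 9160 probe sets had none, 932 had several genes, and 64 control probe sets were left out.

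The values were transformed to log2(signal + 14.2), the offset being the median 20th percentile of the arrays. The test of FDC against BMDC was limma's moderated test (limma 3.58.1, R 4.3.3), with 2 residual degrees of freedom and 3.35 from the prior, on the 27022 probe sets whose mean lay above the 40th percentile (a signal of 46.4), two-sided, with Benjamini-Hochberg adjustment over all of them and a threshold of 0.05. With 2 arrays a side the smallest exact permutation p is 0.333, so no such test was made. For FL-Y, with 1 array, differences are given without a test, over the probe sets above the 40th percentile of the arrays compared. Unless several probe sets are given, the one brightest on average over the 6 arrays stands for its gene. On simulated data with 200 of 27022 probe sets changed, the fit recovered 44.5% of changes of 4 and 84.0% of changes of 6 on the log2 scale, and 5.65% of its calls were false; with 2413 changed, the number called here, it recovered 91.0% and 97.9%, and 4.67% were false.

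The genes and lists were chosen with earlier results of these data known. Besides the 6 genes, the text names every list gene that passed, the top genes of a list where none did (Itih5), and the 3 genes most like each member whose profile spans at least 2 on the log2 scale. Ugdh, Layn, Hmmr, Mmp9, Rdx and Msn were named in their lists after their values were seen, and the list genes below the filter are named without values. Alternatives were other offsets, scalings, filters, a variance trend, the array number as a block and each array left out.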

Additional observations from a re-analysis of the deposited data

How the results depend on the processing

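The number of probe sets called between FDC and BMDC over all tested fell to 1443 with no offset and a floor at the 5th percentile (787 higher and 656 lower in FDC) and to 1433 with no filter (795 and 638), against 2413 (1307 and 1106) as reported, and it ranged from 1312 to 2090 when 1 array was left out (776 to 1042 higher, 536 to 1048 lower). A lone array is then assumed to vary like the other cell type. Of the 6 genes 1 probe set was called with the floor, 2 with no filter, and 3 to 5 when 1 array was left out, against 4. Pathway genes called were 7 to 11 higher and 1 to 5 lower when 1 array was left out, against 11 and 3 with the 6 genes counted. Has1 was called without FDC array 1 and ranged from 2.71 to 4.02 with FDC 1 or either BMDC array left out; without FDC 2 it was at 1.82, below the filter and not tested. The brighter Has2 probe set was called with the replicate block (4.74, adjusted p = 0.0338 in limma) and with the variance trend (4.74). It was at 6.44 without FDC array 1 and ranged from 3.04 to 6.44 over the left-out arrays. The mean of both Has2 probe sets, which includes the one already called, was called at 5.05 (adjusted p = 0.0374 in limma). The labels give no shared origin for arrays of equal number, and 1 BMDC array has no number in them and was taken as array 1; the differences between arrays 2 and 1 correlated at r = 0.199 between FDC and BMDC over probe sets, which are not independent. The block called 2392 probe sets in all, among them 5 probe sets of the 6 genes with both of Has2, the dimmer one included (adjusted p = 0.0266), and changed, among the named list genes, the call of Gfpt1 (adjusted p = 0.0613). Vcan lost its call on its brightest probe set with the floor (4.94), quantile normalization (4.85) and no filter (4.79). Over the left-out arrays that probe set ranged from 3.26 to 6.31. The Vcan probe set 1427257_at lost its call with the floor (5.93, adjusted p = 0.0611 in limma), while 1427256_at kept its call in every setting. The dimmer Has2 probe set lost its call with the floor (5.94, adjusted p = 0.0554 in limma) and with no filter (5.36, adjusted p = 0.0639 in limma). With the floor, Has3 moved to 0.61 in FDC against BMDC, to 0.54 in FL-Y against FDC and to 1.16 in FL-Y against BMDC. Tnfaip6 moved to 2.46 in FDC against BMDC and 2.73 in FL-Y against BMDC, and to 0.77 there with the larger offset. The mean of its 8 probe sets, 5 of them dim, brought Vcan to 2.35 in FDC against BMDC, where it passed (adjusted p = 0.0268 in limma), and to 1.72 in FL-Y against BMDC. For the 13 list genes that passed, other than Vcan, 24 alternative values lost the call and 136 kept it, all with the same direction; no alternatives were run for the other list genes. The cause of these changes was not tested.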
